A study of Rattus norvegicus with 15 samples.

Results

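Beating colonies grown from rat cardiac stem cells (iCM, 3 libraries) were compared with cardiomyocytes of the newborn rat heart (nCM, 3 libraries), which makes 6 of the 15 libraries of the series. The libraries were chosen by their labels, and every gene of the deposited count table entered the comparison. The iCM are contracting colonies that formed from clonogenic, undifferentiated cardiac stem cells, with no age given and no statement of which clone they came from. The nCM were isolated fresh from hearts at postnatal day 1 to 2. Adult cardiomyocytes from 12-week hearts (aCM, 3 libraries) and cultures of 1 undifferentiated stem cell clone (CSC, 3 libraries) are given beside them where their levels matter. All groups are of the Wistar strain, and no transgene, treatment or sort is given for any of them. The labels do not say how many animals or cultures stand behind the iCM, nCM and aCM libraries, so a p-value here measures the spread between libraries, which may be technical.

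Cardiomyocytes build sarcomeres, repeating units in which thick filaments of myosin pull on thin filaments of actin anchored at Z-discs. Calcium released from the sarcoplasmic reticulum switches the filaments on, and after birth the heart turns from glucose and lactate towards fatty acids as fuel. Neonatal heart isolates usually hold other cells as well, among them fibroblasts, endothelial cells, macrophages and blood cells. Skeletal muscle uses related but distinct proteins, made under the control of the MyoD family of transcription factors (Myod1, Myf5, Myog and Myf6).

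Library totals were 44220061, 48514562 and 46990872 counts in iCM and 43307308, 35791754 and 35805619 counts in nCM, and 3 counts correspond to 0.0583 to 0.0794 CPM (counts scaled to a common library size, with TMM factors between libraries), a floor that covers counting error only. The nCM libraries stood farther apart than the iCM libraries, with nCM replicate 3 the most distant. The median chi-square per gene was 2.91 to 7.72 between nCM libraries and 1.72 to 2.31 between iCM libraries, against 0.455 from sampling alone. It was computed on library totals without TMM factors, which were 1.079, 1.056 and 1.182 in nCM and 1.063, 1.062 and 1.043 in iCM. The part of these factors in the distances was not tested. Both groups carried the genes of their labelled cell type. Myh6, the alpha myosin heavy chain, was at 1737, 1456 and 1422 CPM in iCM and 1019, 745 and 483 CPM in nCM. It was at 28.8, 2.97 and 0.296 CPM in CSC and far higher, at 83459, 72677 and 59360 CPM, in aCM. Both iCM and nCM also carried genes of other cells. Pecam1, an endothelial adhesion molecule, was at 453, 379.9 and 389 CPM in iCM and 599, 607 and 469 CPM in nCM, against 0.479, 2.15 and 0.325 CPM in CSC. Hbb, a globin of red blood cells, was at 9352, 7580.3 and 8694 CPM in iCM and 16002, 16804 and 11266 CPM in nCM, against 0, 43.9 and 0 CPM in CSC. In such bulk libraries, fewer cells of a type and less RNA per cell cannot be told apart.

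The comparison asks how close the colonies come to newborn heart muscle. The fit held the 12 libraries of iCM, nCM, aCM and CSC, which shared one estimate of the spread. A standard error therefore also carries the spread within CSC and aCM, which can be wide for genes near 0 there. Of 17242 genes tested, 5412 passed at an adjusted p of 0.05 (edgeR's quasi-likelihood test with Benjamini-Hochberg adjustment), which is 31.4% of all. Higher in iCM were 3147 genes, or 18.3%, and lower were 2265, or 13.1%. The counts of each gene list below are to be read against these shares. The median log2 difference over all genes was -0.02. Large differences lay mostly on one side. At least a 4-fold change was seen in 352 genes higher in iCM and in 44 lower, and a change of 16-fold or more upwards in 92. Without iCM replicate 2 the number of lower genes was 1231, and without iCM replicate 3 it was 1261.

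**Figure D1:**
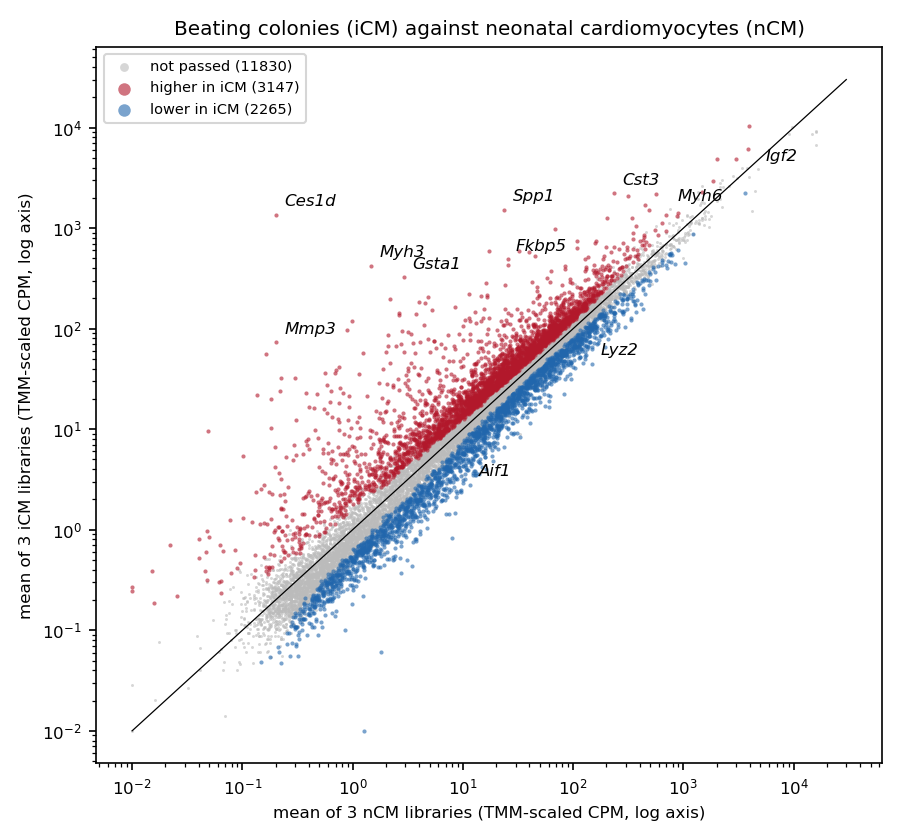
Mean level of each tested gene in nCM (x axis) and in iCM (y axis), both in TMM-scaled CPM on log axes, with 1 point per gene and means below 0.01 drawn at 0.01. The 3147 genes that passed as higher in iCM are red, the 2265 lower ones are blue, and the line marks equal levels; points such as Ces1d, Mmp3 and Myh3 lie far above it, while few lie far below.

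Contractile protein genes leaned to iCM. Of 16 thick and thin filament genes tested, 9 were higher in iCM and 0 lower, with a list median of 0.94 on the log2 scale against -0.02 over all genes, of which 18.3% were higher. In all 16 of them the lowest iCM library lay above the highest nCM library, as it did in 4872 of all 17242 genes tested. The number that passed fell to 4, 3 and 3 without iCM replicate 1, 2 and 3 and 9, 3 and 4 without nCM replicate 1, 2 and 3, while a fit of the 6 libraries alone called 16. Acta1, the skeletal alpha actin that the newborn heart also uses, stood at 822, 869 and 992 CPM in iCM against 466, 383 and 207 CPM in nCM, and was higher by 1.35 ± 0.32 (log2 difference ± its standard error, as in all values given this way; adjusted p = 0.00641). Mybpc3, cardiac myosin-binding protein C, stood at 449.7, 399.6 and 429 CPM in iCM against 264, 215 and 149 CPM in nCM (1.03 ± 0.23, adjusted p = 0.0055). For both genes the iCM libraries were close together and the nCM libraries spread, with nCM replicate 3 the lowest. Tpm1, alpha tropomyosin of the thin filament, was at 1359, 1266 and 1378 CPM in iCM and 880.0, 686 and 519 CPM in nCM (0.94 ± 0.21, adjusted p = 0.00535). Levels of the same 3 genes in aCM were 530.4, 609 and 248 CPM for Acta1, 4509, 5063 and 4091 CPM for Mybpc3 and 4964, 5619 and 4512 CPM for Tpm1. Acta1 in iCM therefore exceeded both heart isolates, whereas Mybpc3 and Tpm1 lay between nCM and aCM. Summed over the list, the level was 12060, 10870 and 11560 CPM in iCM and 7814, 5869 and 4032 CPM in nCM. In aCM the sum was 123100, 124800 and 96290 CPM, far above both. Myh6, at the levels given above, did not pass (1.04 ± 0.89, adjusted p = 0.394). In the fit of 6 libraries it passed (1.02, adjusted p = 0.0102).

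The Z-disc and M-band, which anchor the filaments, also had genes higher in iCM. Of 36 such genes, 25 passed as higher and 0 as lower, with a median of 0.87. Ankrd1, a titin-associated stress protein, was at 299, 401 and 486 CPM in iCM and 191, 123 and 80.9 CPM in nCM (1.59 ± 0.31, adjusted p = 0.00228). Murc, a caveola protein of muscle, reached 7.81, 11.7 and 14.95 CPM in iCM against 4.90, 3.995 and 3.29 CPM in nCM (1.499 ± 0.20, adjusted p = 0.000162). Both had their lowest iCM value in replicate 1, which still lay above all nCM libraries. Lmod3, a leiomodin that nucleates actin, did not: at 1.53, 10.7 and 12.8 CPM in iCM and 1.86, 1.61 and 0.827 CPM in nCM, it was higher in iCM replicates 2 and 3 only, and its call (2.54 ± 0.55, adjusted p = 0.00422) was lost in a fit where iCM replicate 1 stood alone for its group and was taken to vary like the other libraries (0.10, adjusted p = 0.905). Among genes of the intercalated disc and membrane skeleton, 9 of 24 were higher and 1 lower (0 lower without any 1 of the iCM replicates or without nCM replicate 2 or 3). Des, the muscle intermediate filament desmin, stood at 359.8, 571 and 645 CPM in iCM and 229.9, 200.04 and 138 CPM in nCM (1.47 ± 0.38, adjusted p = 0.0108), and its partner Synm at 16.3, 23.8 and 18.99 against 5.39, 4.76 and 6.48 CPM (1.83 ± 0.21, adjusted p = 3.65e-05). Cav3, the muscle caveolin, was at 50.6, 47.2 and 54.8 CPM in iCM and 24.6, 21.4 and 14.7 CPM in nCM (1.33 ± 0.16, adjusted p = 7.63e-05). The adhesion gene Ctnna1 did not pass (0.08 ± 0.12, adjusted p = 0.662). Neither did Gja1, the main ventricular connexin, which is counted with the ion channels and connexins below (0.09 ± 0.13, adjusted p = 0.614).

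Of 21 calcium handling genes, 15 were higher in iCM and 1 lower. Without iCM replicate 3, and equally without nCM replicate 2, 9 were higher. Stim1, the calcium sensor of the sarcoplasmic reticulum, was at 127, 175 and 166 CPM in iCM and 28.7, 32.2 and 31.7 CPM in nCM, a difference of 2.34 ± 0.12 (adjusted p = 5.69e-08). Its iCM level also lay above aCM, at 69.3, 61.96 and 70.5 CPM, and above CSC, at 34.6, 37.9 and 35.7 CPM. Orai1, the membrane channel that Stim1 opens, was the lower one, at 12.1, 11.9 and 12.5 against 16.98, 19.1 and 13.97 CPM (-0.45 ± 0.14, adjusted p = 0.0232), a call lost without any 1 of the iCM replicates or without nCM replicate 1 or 2 (adjusted p = 0.0551 to 0.113). Srl, a calcium-binding protein of the reticulum lumen, was at 121, 149 and 169 CPM in iCM and 51.4, 39.8 and 37.9 CPM in nCM (1.76 ± 0.18, adjusted p = 1.45e-05).

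Ion channel and connexin genes went both ways, with 11 of 32 higher and 3 lower (higher in 7 without iCM replicate 3 and in 7 without nCM replicate 2). The share lower was below the 13.1% of all genes. Atp1b1, a beta subunit of the sodium pump, was higher, at 88.8, 114 and 117 CPM in iCM against 39.1, 30.5 and 31.04 CPM in nCM (1.67 ± 0.43, adjusted p = 0.0112). Kcna5, a potassium channel of the atrium, was lower at 0.808, 0.874 and 1.02 against 1.95, 1.75 and 1.65 CPM (-0.98 ± 0.20, adjusted p = 0.00264). Gja5, the connexin of atrium and conduction fibres that endothelial cells of arteries also make, was lower too, at 12.2, 14.7 and 13.6 against 24.6, 17.6 and 24.4 CPM (-0.72 ± 0.16, adjusted p = 0.00421).

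Genes that mark the atrium and conduction system were higher in iCM in 11 of 19 and lower in 2, with a median of 1.12; without nCM replicate 2 the higher ones numbered 6. Shox2, a transcription factor of the sinus node, was at 7.36, 4.78 and 5.55 CPM in iCM, 0.942, 0.900 and 0.804 CPM in nCM and 13.97, 16.96 and 14.8 CPM in CSC (2.73 ± 0.21, adjusted p = 1.23e-06). All CSC libraries of Shox2 lay above the iCM libraries. Ventricular genes passed as higher in 4 of 10 and lower in 1 (0 lower without iCM replicate 2 or 3 or nCM replicate 2 or 3). Irx4, a transcription factor confined to the ventricles in mouse, was at 29.6, 26.8 and 28.7 CPM in iCM and 15.4, 10.7 and 7.97 CPM in nCM (1.32 ± 0.22, adjusted p = 0.000672). Genes of atrium and ventricle were therefore higher side by side.

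Among 21 cardiac transcription factors, 10 were higher and 3 lower, and 1 was lower without iCM replicate 2 or 3 or without nCM replicate 2. The share lower was near the 13.1% of all genes. Srf, which drives muscle genes from serum response elements, was at 121, 118 and 127 CPM in iCM and 89.04, 80.2 and 62.8 CPM in nCM (0.66 ± 0.16, adjusted p = 0.0067). Hey1, a target of Notch signalling, was lower at 5.04, 4.68 and 5.47 against 10.2, 10.8 and 12.4 CPM (-1.14 ± 0.21, adjusted p = 0.00171). Regulators tied to the maturing heart were higher in 11 of 19 and lower in 0. Summed over this list, the level was 786, 719 and 727 CPM in iCM and 534, 550 and 521 CPM in nCM. In CSC the sum was 676.5, 647 and 720 CPM. Klf15, a Kruppel-like factor that represses hypertrophic genes and promotes fat use, was at 79.5, 72.8 and 74.3 CPM in iCM and 6.87, 4.23 and 5.41 CPM in nCM (3.77 ± 0.35, adjusted p = 7.02e-06). The aCM level of Klf15 was 86.1, 91.1 and 67.3 CPM, so the iCM libraries lay near the adult and not the newborn value. Thrb, a thyroid hormone receptor, was at 15.3, 15.6 and 12.8 CPM in iCM, 3.34, 4.50 and 4.44 CPM in nCM and 81.2, 87.9 and 78.8 CPM in aCM (1.83 ± 0.17, adjusted p = 7.55e-06). Rxra, the retinoid X receptor that partners it, was at 55.2, 59.5 and 51.3 CPM in iCM and 23.96, 23.9 and 22.6 CPM in nCM (1.24 ± 0.10, adjusted p = 2.44e-06). Thrb in CSC was at 8.57, 13.2 and 12.2 CPM, overlapping the iCM libraries. Klf15 and Rxra in CSC lay below iCM, at 5.79, 8.00 and 2.10 CPM and at 27.4, 30.9 and 33.4 CPM.

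In 4 metabolic lists, all genes that passed were higher in iCM. In fatty acid uptake and oxidation 15 of 30 were higher, in the citrate cycle and pyruvate oxidation 15 of 24, in glucose use 17 of 30 and in the nuclear-encoded respiratory chain 12 of 32, and 0 were lower in each. These counts lean on single libraries. Respiratory chain genes numbered 6, 7 and 6 without iCM replicate 1, 2 and 3 and 17, 6 and 6 without nCM replicate 1, 2 and 3. Glucose genes numbered 11, 11 and 10 without iCM replicate 1, 2 and 3 and 18, 11 and 10 without nCM replicate 1, 2 and 3, and citrate cycle genes 9 without iCM replicate 3. Fatty acid genes numbered 11, 11 and 11 without iCM replicate 1, 2 and 3 and 18, 11 and 11 without nCM replicate 1, 2 and 3. The fatty acid list summed to 4285, 3715 and 4006 CPM in iCM and 4363, 3937 and 2754 CPM in nCM. These sums overlapped, unlike those of the citrate cycle, glucose and respiratory chain lists. The medians of the 4 lists lay between 0.39 and 0.52 on the log2 scale, below a 2-fold change. Slc2a4, the insulin-responsive glucose transporter, was well above these medians, at 27.2, 40.2 and 38.4 CPM in iCM, 4.17, 4.29 and 3.33 CPM in nCM and 997, 846 and 758 CPM in aCM (3.16 ± 0.18, adjusted p = 1.03e-07). Gys1, muscle glycogen synthase, was at 78.5, 76.6 and 78.4 CPM in iCM and 37.5, 25.6 and 25.3 CPM in nCM (1.40 ± 0.16, adjusted p = 3.66e-05). Slc27a1, a fatty acid transporter, was at 37.97, 31.03 and 34.1 CPM in iCM and 12.8, 12.9 and 13.5 CPM in nCM (1.39 ± 0.25, adjusted p = 0.00114), and Acsl1, which activates long-chain fatty acids, at 115, 104 and 107 against 64.9, 50.8 and 43.1 CPM (1.04 ± 0.15, adjusted p = 0.000224). Dlat, a core enzyme of pyruvate dehydrogenase, stood at 122, 109 and 123 CPM in iCM and 78.4, 60.8 and 46.3 CPM in nCM (0.93 ± 0.17, adjusted p = 0.00127). For Acsl1 and Dlat the distance to the adult level was the larger one, with aCM at 1639, 1817 and 1622 and 393, 442 and 412 CPM. In CSC, Acsl1 was at 102, 98.2 and 112 CPM, overlapping iCM, and Gys1 at 198, 186 and 179 CPM, above iCM. Slc2a4, Slc27a1 and Dlat were lower in CSC than in iCM. The glucose list summed to 19140, 23210 and 21070 CPM in CSC, against 5972, 6193 and 6375 CPM in iCM. The fatty acid, citrate cycle and respiratory chain lists summed to less in CSC than in iCM. Of 7 genes of creatine and myoglobin, 4 were higher and 1 lower (0 lower without iCM replicate 1 or 2 or nCM replicate 2), among them Ckm, the muscle creatine kinase, at 271, 232 and 253 against 152, 122 and 74.3 CPM (1.12 ± 0.25, adjusted p = 0.00472).

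**Figure D2:**
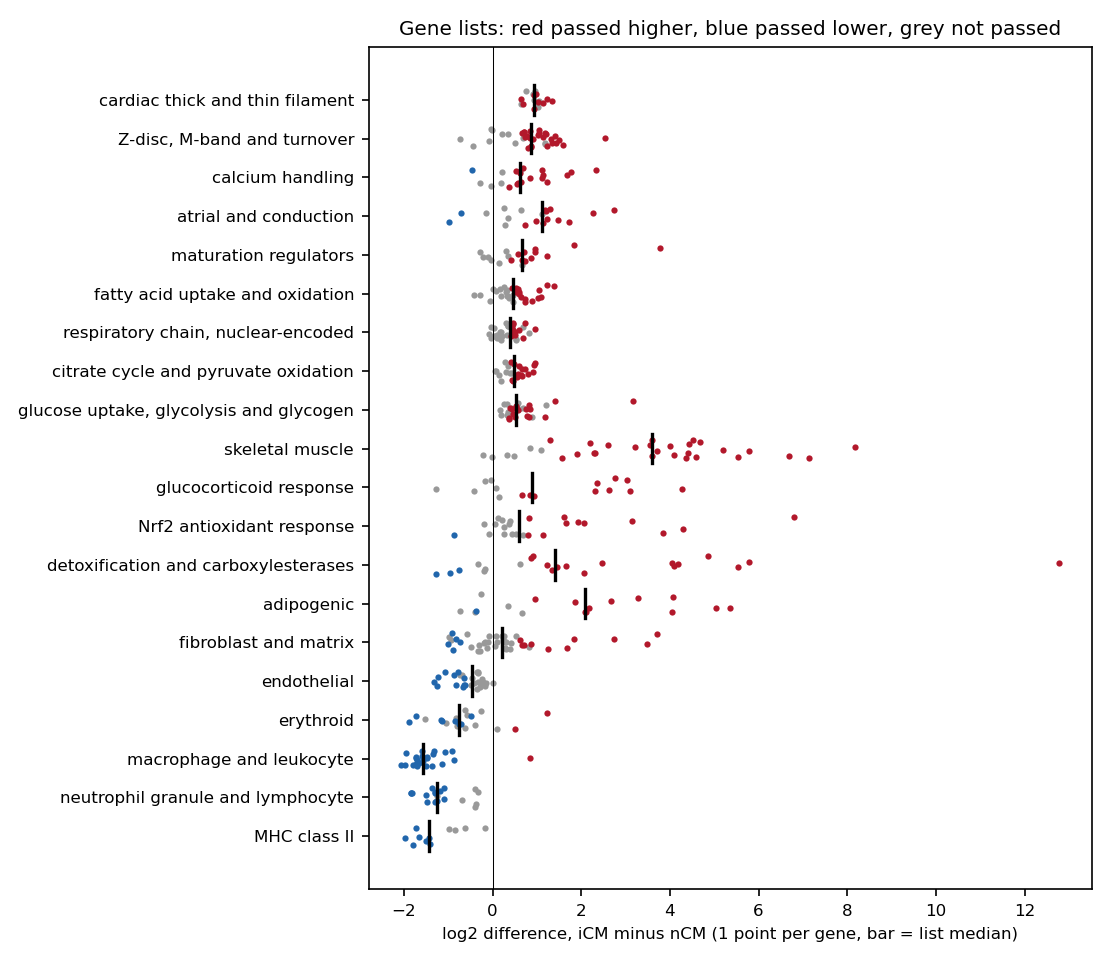
Log2 difference between iCM and nCM (x axis) for the genes of 20 lists (rows), with 1 point per tested gene and a black bar at each list's median. Cardiac and metabolic lists sit to the right of 0 by under 1.5 at their medians, the skeletal muscle list has its median at 3.59, and the leukocyte and MHC class II lists sit to the left.

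Skeletal muscle genes separated the iCM libraries from each other. Of 13637 genes with a mean of at least 1 CPM in iCM, 71 had a highest iCM library more than 5 times the lowest, and 70 of them were lowest in iCM replicate 1. The same spread was seen in 8 of 13878 genes in nCM. Of 32 skeletal muscle genes tested, 26 passed as higher in iCM and 0 as lower, with a median of 3.59. All 3 iCM libraries, however, lay above all nCM libraries in only 7 genes of the list. Among all 17242 genes tested, 4872 were separated in this way. With iCM replicate 1 alone, 1 passed and the median was -0.09. Summed over the list, the level was 47.2, 1250 and 1507 CPM in iCM replicates 1, 2 and 3 and 37.5, 36.5 and 38.6 CPM in nCM.

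Myog, myogenin, the MyoD family factor of muscle cells that leave the cell cycle and fuse, was at 0.298, 45.6 and 51.997 CPM in iCM and 0.235, 0.159 and 0.284 CPM in nCM. The first iCM library rests on 14 counts and the nCM libraries on 11, 6 and 12 counts. The group difference was 7.14 ± 1.28 (adjusted p = 0.00124), and 0.39, adjusted p = 0.786 with iCM replicate 1 alone. Tmem8c, the fusion protein myomaker, had 0.277, 45.8 and 49.9 CPM in iCM and 0.300, 0.159 and 0.449 CPM in nCM (6.69 ± 1.24, adjusted p = 0.0015). Myh3, the embryonic myosin heavy chain, had 2.38, 584 and 682 CPM in iCM, 1.18, 1.38 and 1.87 CPM in nCM and 12.9, 12.3 and 8.03 CPM in aCM (8.16 ± 1.37, adjusted p = 0.000796; 8.75, adjusted p = 1.52e-09 without iCM replicate 1 and 0.70, adjusted p = 0.295 with it alone). In these 3 genes iCM replicates 2 and 3 were far above every nCM library, and iCM replicate 1 was among or just above the nCM values.

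The fast fibre proteins followed the same split between libraries. Mylpf, the fast regulatory light chain, was at 8.64, 99.6 and 155 CPM in iCM and 4.20, 3.57 and 2.44 CPM in nCM (4.69 ± 0.73, adjusted p = 0.000467; 3.99, adjusted p = 0.00174 without iCM replicate 3 and 1.35, adjusted p = 0.0223 with iCM replicate 1 alone). Tnnt3, fast troponin T, was at 3.999, 60.3 and 70.7 against 2.16, 2.30 and 2.13 CPM (4.36 ± 0.72, adjusted p = 0.000732), and was lost with iCM replicate 1 alone (0.87, adjusted p = 0.126). Cacna1s, the voltage sensor of skeletal muscle membranes, had 0.808, 26.2 and 27.8 CPM in iCM and 0.578, 0.635 and 1.06 CPM in nCM, and Chrng, the fetal subunit of the acetylcholine receptor, 0.319, 7.84 and 8.96 against 0.343, 0.344 and 0.378 CPM. Myod1, the factor that commits cells to muscle, showed a smaller gap, with 1.11, 11.7 and 8.34 CPM in iCM and 1.56, 1.53 and 1.51 CPM in nCM (2.20 ± 0.56, adjusted p = 0.00978; 1.62, adjusted p = 0.0547 without iCM replicate 2). Its relative Myf5 was at 0.596, 0.427 and 0.632 CPM in iCM and 0.364, 0.344 and 0.615 CPM in nCM and did not pass (0.32 ± 0.28, adjusted p = 0.412). Pax7, the marker of skeletal muscle stem cells, was too low to be tested, at 0.170, 0.155 and 0.0816 CPM in iCM and 0.107, 0.0794 and 0.213 CPM in nCM.

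Genes outside the skeletal list shared the pattern. By the size of the ratio between iCM libraries, the 10 genes of at least 10 CPM with the widest spread were Myh3, Tmem8c, Myog, Tnnc2, Tnn, Mybph, Gal, Myh1, Tnni2 and Cntn2. Tnn, the matrix protein tenascin N, was at 2.81, 254 and 166 CPM in iCM and 2.55, 3.39 and 5.41 CPM in nCM. Gal, the neuropeptide precursor galanin, was at 1.55, 99.04 and 102 CPM in iCM and 3.45, 2.04 and 1.99 CPM in nCM. Col11a1, a fibrillar collagen of cartilage, was at 26.1, 309 and 315 CPM in iCM and 12.1, 18.5 and 19.3 CPM in nCM. In these 3 genes iCM replicate 1 lay within a factor of 3 of every nCM library.

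**Figure D3:**
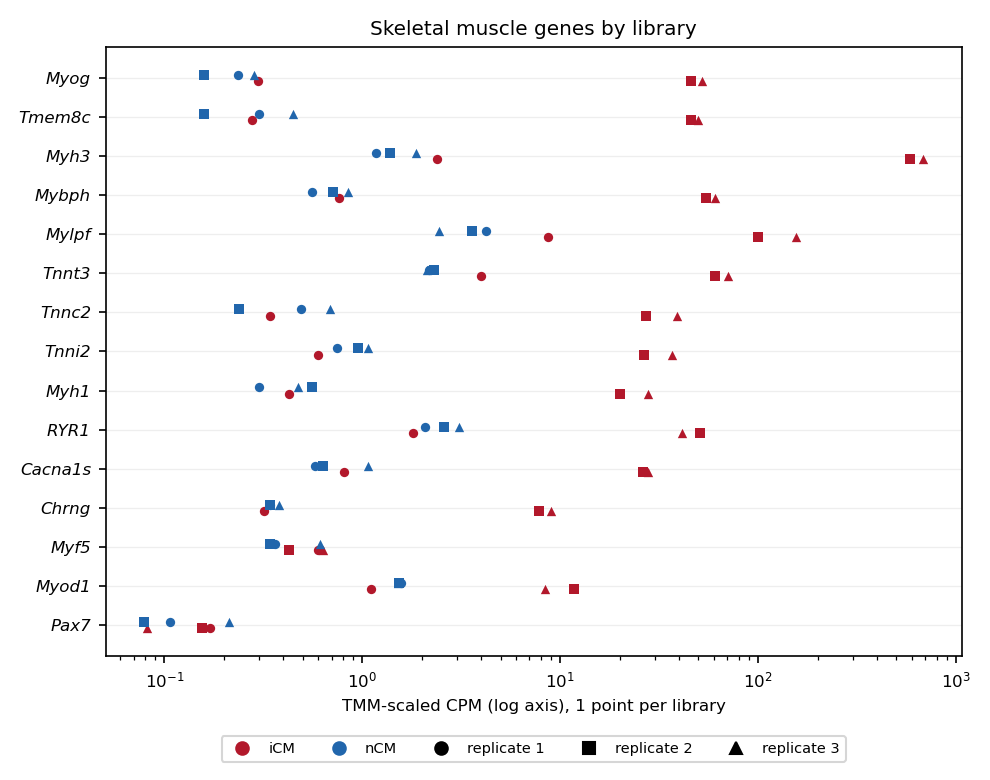
Level of 15 skeletal muscle genes (rows) in each iCM (red) and nCM (blue) library, in TMM-scaled CPM on a log axis, with the marker shape giving the replicate number. From Myog to Chrng, iCM replicates 2 and 3 stand to the right by a factor of 10 or more in most rows while iCM replicate 1 lies among the blue points or just above them; Myf5 and Pax7 show no such gap.

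Promoters of skeletal muscle genes that moved together are shown because MyoD family factors bind the E-box CAGCTG and MEF2 factors bind AT-rich sites. Windows of 250 bases before the annotated start came from RefSeq (build GRCr8, a build that the count table does not name). Of 37 symbols on the skeletal list, 30 matched the promoter table. CAGCTG, which reads the same on both strands, was present in the windows of 12 of these genes, or 40.0%. Counted by window, it was in 14 of the list's 33 windows and in 12.0% of all 33469 windows. The looser MEF2 form CTANNNNTA was present in 12 genes, or 40.0%. By window it was in 13 of 33 and in 20.02% of all windows. Matches of one motif cannot overlap those of the other. Capitals mark CAGCTG in the first 3 sequences and the CTANNNNTA match in the last.
Chrng (chr9:95325734-95325983, plus strand): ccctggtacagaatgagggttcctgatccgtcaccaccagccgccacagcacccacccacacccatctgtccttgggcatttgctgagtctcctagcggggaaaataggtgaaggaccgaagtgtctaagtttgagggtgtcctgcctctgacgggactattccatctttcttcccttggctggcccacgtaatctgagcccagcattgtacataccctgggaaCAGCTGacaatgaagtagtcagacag
Mybpc1 (chr7:24903374-24903623, minus strand): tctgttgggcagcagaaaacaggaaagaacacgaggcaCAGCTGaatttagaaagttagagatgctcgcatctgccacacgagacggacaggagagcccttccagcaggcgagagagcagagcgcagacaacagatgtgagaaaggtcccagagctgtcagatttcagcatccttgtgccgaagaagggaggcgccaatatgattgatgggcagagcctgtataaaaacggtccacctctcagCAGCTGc
Cacna1s (chr13:50045418-50045667, plus strand): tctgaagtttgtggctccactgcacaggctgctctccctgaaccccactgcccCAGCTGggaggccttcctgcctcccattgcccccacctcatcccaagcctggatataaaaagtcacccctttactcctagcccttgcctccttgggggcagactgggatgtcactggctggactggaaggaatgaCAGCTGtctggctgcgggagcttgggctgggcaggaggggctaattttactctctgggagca
Myog (chr13:48297226-48297475, plus strand): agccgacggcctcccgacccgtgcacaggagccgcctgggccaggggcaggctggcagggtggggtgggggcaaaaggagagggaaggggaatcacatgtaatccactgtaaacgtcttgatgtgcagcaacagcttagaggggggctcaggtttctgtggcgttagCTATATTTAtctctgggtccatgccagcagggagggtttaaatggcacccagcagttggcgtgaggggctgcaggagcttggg
The E-box of Chrng begins 26 bases before the start, those of Mybpc1 at 212 and 7 bases and those of Cacna1s at 197 and 62 bases. The Myog window holds no CAGCTG, and its MEF2 form begins 83 bases before the start. Mybpc1, a slow myosin-binding protein C, was at 1.55, 53.7 and 65.1 CPM in iCM and 2.03, 1.59 and 2.01 CPM in nCM. A match of letters is a description of the window, and binding was not measured.

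Among genes of at least 10 CPM whose groups did not overlap, the largest difference between iCM and nCM was in a gene outside muscle. Ces1d, a carboxylesterase that hydrolyses lipids and drugs, was at 1577, 1321 and 1195 CPM in iCM, and in nCM at 0.0642, 0.397 and 0.142 CPM, from 3, 15 and 6 counts. The difference was 12.78 ± 0.59 on the log2 scale (adjusted p = 1.84e-08), and 13.67, adjusted p = 4.89e-07 without nCM replicate 2. Its level was 94.7, 70.8 and 140.2 CPM in aCM and 1.39, 0.768 and 2.66 CPM in CSC, so all 3 iCM libraries lay above every other library. Mmp3, the matrix protease stromelysin 1, was at 101, 56.9 and 62.3 CPM in iCM and 0.0856, 0.265 and 0.260 CPM in nCM (8.51 ± 0.52, adjusted p = 1.55e-07), with CSC at 387, 157 and 199 CPM. Spp1, the secreted phosphoprotein osteopontin, was at 1909, 1368 and 1295 CPM in iCM and 13.3, 19.4 and 38.6 CPM in nCM (6.005 ± 0.43, adjusted p = 6.61e-07), with CSC at 6736, 10155 and 7557 CPM. These 3 genes show 2 kinds of increase, one found in iCM above all other groups and one shared with the undifferentiated cells.

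Across the 352 genes at least 4-fold higher in iCM than in nCM, the CSC mean lay above the iCM mean in 106, the aCM mean lay above it in 35, and iCM was above both in 217. Genes with CSC above iCM include Fgf7, keratinocyte growth factor, at 29.2, 21.9 and 21.1 CPM in iCM, 0.150, 0.370 and 0.142 CPM in nCM and 46.6, 40.03 and 60.6 CPM in CSC (6.79 ± 0.32, adjusted p = 1.84e-08). Akr1b8, an aldo-keto reductase, was at 187, 209 and 195 CPM in iCM, 2.25, 1.93 and 2.41 CPM in nCM and 849, 499.7 and 1047 CPM in CSC (6.48 ± 0.28, adjusted p = 1.16e-08). Krt8, a keratin of simple epithelia, was at 81.04, 68.2 and 62.8 CPM in iCM, 7.51, 4.29 and 7.12 CPM in nCM and 1336, 1721 and 1914 CPM in CSC (3.48 ± 0.24, adjusted p = 5.46e-07). In all 3 the iCM libraries fell between nCM and CSC. Adhfe1, an alcohol dehydrogenase of mitochondria, stood with the adult heart instead, at 43.1, 33.8 and 31.01 CPM in iCM, 0.471, 0.609 and 0.615 CPM in nCM and 52.7, 48.7 and 48.97 CPM in aCM (5.99 ± 0.26, adjusted p = 1.16e-08). C6, a terminal complement component, was highest in iCM, at 128, 79.99 and 83.5 CPM against 0.856, 0.556 and 1.23 CPM in nCM, 2.38, 2.55 and 2.49 CPM in aCM and 0.191, 0.235 and 0.0887 CPM in CSC (6.77 ± 0.28, adjusted p = 1.16e-08). Cst3, the secreted protease inhibitor cystatin C, was likewise highest there, at 2139.8, 2325 and 2224 CPM against 257, 237 and 213 CPM in nCM (3.24 ± 0.20, adjusted p = 1.76e-07). The lowest iCM library of Cst3 was above the highest library of each other group, the nearest being aCM at 522, 384 and 648 CPM.

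**Figure D4:**
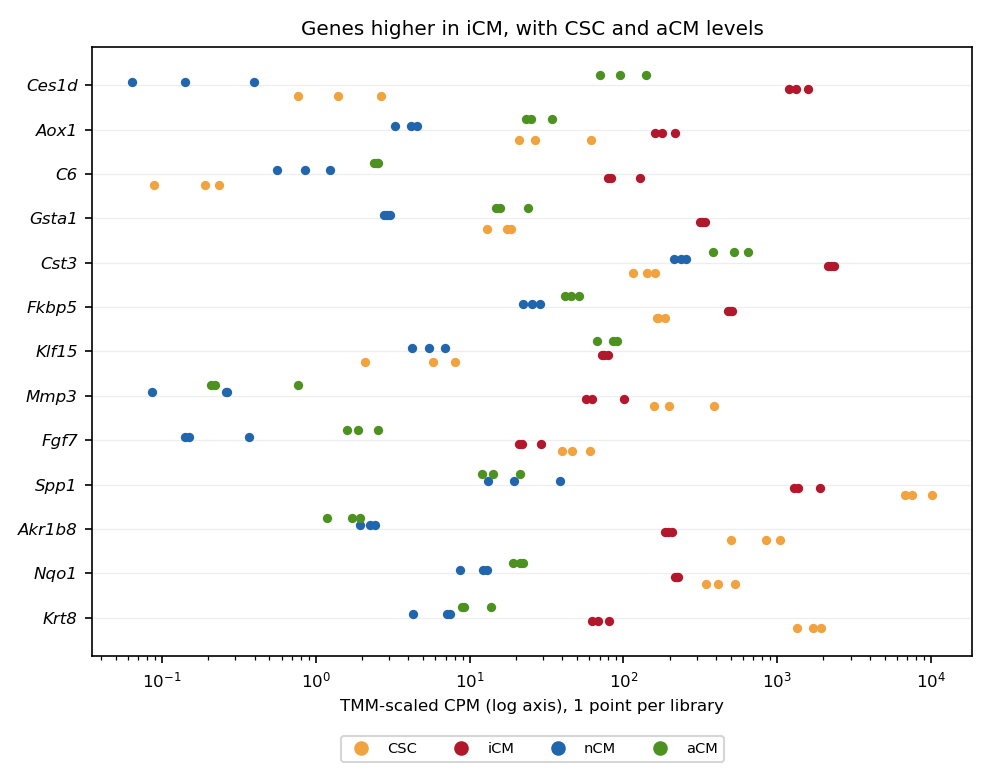
Level of 13 genes higher in iCM (rows) in each library of CSC (orange), iCM (red), nCM (blue) and aCM (green), in TMM-scaled CPM on a log axis. In the rows from Ces1d to Fkbp5 the red points lie to the right of all others, Klf15 lies with aCM, and from Mmp3 to Krt8 the orange points lie farthest right.

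Among genes of at least 10 CPM whose groups did not overlap, most of the 14 largest decreases were in leukocyte genes, described further on. C1qtnf3, a secreted relative of adiponectin, was at 3.62, 3.30 and 3.83 CPM in iCM and 16.04, 13.1 and 13.2 CPM in nCM (-1.98 ± 0.20, adjusted p = 1.86e-05). Agr2, a disulfide isomerase of secretory cells, was at 6.57, 6.39 and 6.89 CPM in iCM and 22.4, 27.9 and 19.95 CPM in nCM (-1.82 ± 0.19, adjusted p = 2.2e-05). Both were even within each group and near 0 in CSC, at 0.646, 0.768 and 0.710 CPM for C1qtnf3 and 0.144, 0.0853 and 0.0887 CPM for Agr2. By the absolute difference in CPM, Tox, a nuclear protein known from lymphocytes, was among the most reduced, at 490.3, 452 and 422 CPM in iCM and 839, 1176 and 1079.7 CPM in nCM (-1.18 ± 0.22, adjusted p = 0.00159), and was highest in aCM, at 5745, 4066 and 4315 CPM. Alox15, a lipoxygenase of macrophages and eosinophils, was at 168, 148 and 154 CPM in iCM and 160.3, 489 and 648 CPM in nCM (-1.47 ± 0.37, adjusted p = 0.00988; -1.05, adjusted p = 0.0505 without nCM replicate 3). Its groups overlapped, because nCM replicate 1 lay with the iCM libraries and not with the other two nCM libraries.

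Genes that glucocorticoid hormones induce were higher in iCM. The list holds co-chaperones, feedback regulators and metabolic enzymes that the hormone receptor activates in many cell types. Of its 16 genes, 10 passed as higher and 0 as lower, and the count of higher genes was 10 in every fit that left out 1 library. Fkbp5, a co-chaperone of the receptor, was at 491, 508 and 475 CPM in iCM and 28.8, 22.3 and 25.4 CPM in nCM (4.27 ± 0.13, adjusted p = 7.87e-10), with CSC at 185, 168 and 166 and aCM at 45.5, 51.4 and 41.4 CPM. Tsc22d3, a leucine zipper protein that dampens inflammation, was at 701, 763 and 747 CPM in iCM and 129.9, 99.6 and 96.5 CPM in nCM (2.76 ± 0.20, adjusted p = 6.8e-07). Both had their iCM libraries above all 9 other libraries. Glul, glutamine synthetase, was at 1336, 1266 and 1184 CPM in iCM and 197, 219.9 and 197 CPM in nCM (2.62 ± 0.15, adjusted p = 1.03e-07), and Mt2A, a metallothionein, at 129, 117 and 111 against 15.9, 15.8 and 12.1 CPM (3.03 ± 0.26, adjusted p = 3.37e-06). Mt2A was higher still in CSC, at 302, 191 and 278 CPM, while Glul was lower there than in iCM, at 247, 370 and 274 CPM. Members that did not pass include Dusp1, a phosphatase that many stimuli induce, at 976, 1018 and 1055 CPM in iCM and 844, 1108 and 808 CPM in nCM (0.14 ± 0.22, adjusted p = 0.653). The culture medium of the colonies is not given in the labels.

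Targets of Nrf2, the factor that answers oxidative and chemical stress, were higher in 11 of 24 and lower in 1. Nqo1, a quinone reductase, was at 215, 224 and 226 CPM in iCM, 12.9, 12.2 and 8.68 CPM in nCM and 413, 343 and 530.4 CPM in CSC (4.30 ± 0.19, adjusted p = 1.29e-08). Gstm2, a glutathione S-transferase, was at 225, 205 and 199.5 CPM in iCM, 15.1, 15.3 and 13.4 CPM in nCM and 162, 210.3 and 175 CPM in aCM (3.85 ± 0.15, adjusted p = 6.09e-09). Fth1, the heavy chain of the iron store ferritin, was at 1631, 1877 and 1605 CPM in iCM and 406, 466 and 465 CPM in nCM (1.93 ± 0.13, adjusted p = 3.62e-07). Slc7a11, the cystine transporter, was the lower member, at 4.32, 3.49 and 4.04 against 6.87, 8.71 and 6.22 CPM (-0.88 ± 0.15, adjusted p = 0.00112), and was far higher in CSC, at 275, 298 and 293 CPM. The pathway's targets thus did not move as one. The table has separate rows named Gsta1 and GSTA1, alpha-class transferases of similar sequence, at 324, 337 and 317 and 116, 126 and 115 CPM in iCM against 2.91, 3.04 and 2.77 and 1.05, 0.794 and 1.13 CPM in nCM; reads may have been split between them.

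Enzymes that handle drugs and aldehydes overlapped with these and were higher in 15 of 22 and lower in 3. Aox1, aldehyde oxidase, was at 217, 160.0 and 179 CPM in iCM and 4.54, 3.25 and 4.14 CPM in nCM (5.54 ± 0.39, adjusted p = 5.03e-07). Aldh2, the mitochondrial aldehyde dehydrogenase, was at 265, 266 and 247 CPM in iCM, 56.8, 45.9 and 37.4 CPM in nCM and 359.7, 343 and 319.7 CPM in aCM (2.47 ± 0.15, adjusted p = 1.12e-07). Aldh1a1, which makes retinoic acid and marks epicardium, went the other way at 12.97, 10.9 and 10.9 against 28.7, 29.2 and 25.7 CPM (-1.27 ± 0.26, adjusted p = 0.00293).

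Genes of fat cells and lipid droplets were higher in 11 of 17 and lower in 1 (0 lower without any 1 of the iCM replicates or without nCM replicate 2), with a median of 2.08. The summed level of the list was not higher in iCM. It was 1557, 1252 and 1352 CPM in iCM and 2250, 1988 and 1203 CPM in nCM. Adipoq, the fat cell hormone adiponectin, was at 8.61, 5.18 and 6.08 CPM in iCM, 0.171, 0.159 and 0.260 CPM in nCM and 0.0718, 0.107 and 0.118 CPM in CSC (5.05 ± 0.34, adjusted p = 3.35e-07). Plin4, a lipid droplet coat protein also made in muscle, was at 109, 76.2 and 74.9 CPM in iCM, 2.40, 2.01 and 1.87 CPM in nCM and 371, 385 and 297 CPM in aCM (5.37 ± 0.25, adjusted p = 1.88e-08). Cfd, the adipocyte protease adipsin, was at 39.6, 26.97 and 26.1 CPM in iCM and 4.17, 1.59 and 3.74 CPM in nCM (3.28 ± 0.41, adjusted p = 8.99e-05). Pparg, the nuclear receptor that governs fat cell formation, was closer, at 38.6, 25.2 and 27.1 CPM in iCM and 23.1, 17.7 and 16.2 CPM in nCM, and did not pass (0.67 ± 0.26, adjusted p = 0.0617; 0.66, adjusted p = 0.0239 in the fit of 6 libraries). Unlike the skeletal genes, Adipoq, Cfd and Plin4 were highest in iCM replicate 1. Lep, the hormone leptin (-0.26 ± 0.29, adjusted p = 0.516), did not pass.

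Macrophage and other leukocyte genes were lower in iCM. Of 25 such genes, 24 passed as lower and 1 as higher, with a median of -1.57, against 13.1% lower among all genes. The iCM libraries lay below all nCM libraries in 23 of them, and in 4255 of all 17242 genes tested. Summed over the list, iCM libraries lay between 289 and 336 CPM and nCM libraries between 630.2 and 991 CPM. Aif1, a macrophage calcium-binding protein, was at 2.85, 2.72 and 2.88 CPM in iCM and 10.98, 7.30 and 16.8 CPM in nCM (-2.05 ± 0.26, adjusted p = 0.000106), and at 0.0957, 0.149 and 0.148 CPM in CSC. Cybb, the phagocyte oxidase subunit, was at 9.21, 7.79 and 7.96 CPM in iCM and 25.5, 27.1 and 45.3 CPM in nCM (-1.97 ± 0.25, adjusted p = 9.46e-05). Itgal, the alpha chain of a leukocyte integrin, was at 11.4, 12.4 and 10.9 CPM in iCM and 42.1, 41.3 and 38.3 CPM in nCM (-1.81 ± 0.19, adjusted p = 1.94e-05). Leukocyte genes were lower but not near 0 in iCM. Cd14, the endotoxin co-receptor, was the one that was higher, at 31.7, 32.02 and 28.9 CPM in iCM, 12.4, 16.7 and 22.6 CPM in nCM and 30.9, 40.99 and 23.9 CPM in CSC (0.84 ± 0.23, adjusted p = 0.0146; 0.66, adjusted p = 0.0518 without nCM replicate 1). Of 20 neutrophil and lymphocyte genes, 13 were lower and 0 higher. Camp, an antimicrobial peptide of neutrophils, was at 4.40, 3.75 and 4.41 CPM in iCM and 16.8, 17.4 and 10.6 CPM in nCM (-1.83 ± 0.34, adjusted p = 0.00164).

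Chemokines and cytokines were lower in 16 of 30 and higher in 3. Il1b, the cytokine interleukin 1 beta, was at 17.8, 15.9 and 15.99 CPM in iCM and 64.2, 67.6 and 47.7 CPM in nCM (-1.85 ± 0.20, adjusted p = 2.98e-05). Its natural antagonist Il1rn was higher, at 75.7, 65.1 and 52.4 CPM in iCM and 5.50, 7.57 and 7.45 CPM in nCM (3.24 ± 0.20, adjusted p = 1.59e-07). Also higher were Csf1, the growth factor of macrophages, at 141, 288 and 224 against 46.6, 53.2 and 47.3 CPM (2.15 ± 0.23, adjusted p = 2.83e-05; 1.53, adjusted p = 0.00168 with iCM replicate 1 alone), and Cxcl12, a chemokine of stromal cells, at 71.5, 65.6 and 63.3 against 15.3, 17.7 and 24.1 CPM (1.81 ± 0.42, adjusted p = 0.00566). In all 3 higher genes the iCM libraries lay above all nCM libraries, and Csf1 was higher still in CSC, at 382, 469.8 and 587 CPM. In the list of MHC class I and interferon response, 11 of 24 were lower and 4 higher, the latter 2 without nCM replicate 1. Irf1, an interferon-induced factor, was at 189, 169.8 and 173 CPM in iCM and 387, 471 and 391 CPM in nCM (-1.23 ± 0.19, adjusted p = 0.000481), while Psmb8, a subunit of the immunoproteasome, was at 9.68, 11.1 and 10.9 against 3.94, 5.34 and 5.44 CPM (1.11 ± 0.20, adjusted p = 0.00131).

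MHC class II proteins present antigen on macrophages, dendritic cells and B cells, and 7 of 11 rows of the list were lower in iCM and 0 higher, with a median of -1.43. The promoters of the classical genes are shown because they were lower together and share a control element, the Y box CTGATTGG. It was present on either strand in the 250-base windows of 5 of 8 class II genes matched in the RefSeq table (GRCr8) and in 3.19% of all windows. Capitals mark it.
RT1-Da (chr20:4515165-4515414, plus strand): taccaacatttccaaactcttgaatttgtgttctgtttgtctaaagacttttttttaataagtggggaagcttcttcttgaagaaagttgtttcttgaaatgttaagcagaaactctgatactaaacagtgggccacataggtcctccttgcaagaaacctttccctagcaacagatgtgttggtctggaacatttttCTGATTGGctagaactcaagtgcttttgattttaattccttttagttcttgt
RT1-Db1 (chr20:4560163-4560412, minus strand): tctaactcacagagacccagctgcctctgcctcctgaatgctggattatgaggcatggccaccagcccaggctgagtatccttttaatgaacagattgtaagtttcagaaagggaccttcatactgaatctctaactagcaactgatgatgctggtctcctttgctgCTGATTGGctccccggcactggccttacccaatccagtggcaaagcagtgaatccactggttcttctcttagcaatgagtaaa
RT1-Ba (chr20:4576807-4577056, plus strand): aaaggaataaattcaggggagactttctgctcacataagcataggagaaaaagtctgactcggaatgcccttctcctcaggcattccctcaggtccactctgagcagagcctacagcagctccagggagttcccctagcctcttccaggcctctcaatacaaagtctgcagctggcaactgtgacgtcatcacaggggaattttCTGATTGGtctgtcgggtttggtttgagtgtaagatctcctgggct
RT1-Bb (chr20:4604119-4604368, minus strand): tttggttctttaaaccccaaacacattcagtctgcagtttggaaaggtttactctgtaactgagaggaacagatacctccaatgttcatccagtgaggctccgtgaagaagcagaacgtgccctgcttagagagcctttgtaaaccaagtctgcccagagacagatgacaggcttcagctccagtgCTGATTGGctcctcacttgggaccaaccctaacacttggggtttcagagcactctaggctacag
The box begins 46 bases before the start in RT1-Ba, 52 in RT1-Da, 64 in RT1-Bb and 83 in RT1-Db1. RT1-Da, an alpha chain, was at 5.15, 5.03 and 5.14 CPM in iCM and 7.73, 14.9 and 20.5 CPM in nCM (-1.49 ± 0.31, adjusted p = 0.00296). RT1-Db1, a beta chain, was at 2.94, 2.16 and 2.35 CPM in iCM and 3.96, 9.26 and 15.9 CPM in nCM (-1.97 ± 0.43, adjusted p = 0.00415). RT1-Ba was at 4.62, 3.09 and 3.88 against 7.30, 10.6 and 20.4 CPM (-1.73 ± 0.36, adjusted p = 0.0035), and RT1-Bb at 1.74, 1.90 and 2.98 against 4.69, 7.89 and 8.51 CPM (-1.67 ± 0.34, adjusted p = 0.00264). In each of the 4 genes nCM replicate 1 was the lowest nCM library and nCM replicate 3 the highest, and the 3 iCM libraries lay below all of them. Reads of these related chains may be split between rows. Ciita, the coactivator that switches these promoters on, was at 0.638, 0.971 and 0.653 CPM in iCM and 1.03, 1.59 and 1.49 CPM in nCM and did not pass (-0.85 ± 0.54, adjusted p = 0.249). In the fit of 6 libraries it passed (-0.86, adjusted p = 0.03). All iCM libraries of Ciita lay below all nCM libraries, and its CSC libraries were spread, at 2.54, 0.597 and 5.06 CPM.

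Erythroid genes were lower in 8 of 21 and higher in 2, with a median of -0.76; without iCM replicate 2, 3 were lower, and the fit of the 6 libraries alone called 16 lower. The main globins did not pass in the fit of 12 libraries. Hbb, at the levels given above, differed by -0.78 ± 1.29 (adjusted p = 0.675), and by -0.80, adjusted p = 0.0114 in the fit of 6 libraries. The error of the first fit includes the CSC libraries, at 0, 2056 and 0 counts of Hbb. All iCM libraries of Hbb lay below all nCM libraries. Hbq1b, a minor globin, was at 3.19, 2.70 and 2.59 CPM in iCM and 4.20, 6.99 and 7.87 CPM in nCM (-1.17 ± 0.27, adjusted p = 0.00606). Summed erythroid levels were 31480, 26610 and 28230 CPM in iCM, 57960, 58610 and 38080 CPM in nCM, 945, 1399 and 794 CPM in aCM and 290.3, 498 and 400 CPM in CSC, so the colonies stood with the newborn isolates and apart from the other groups. Several globin genes are near-identical copies, so reads may be split between their rows.

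Of 28 endothelial genes, 11 were lower and 0 higher (lower in 6 without iCM replicate 2 and in 6 without nCM replicate 2, and in 18 in the fit of 6 libraries). Egfl7, a matrix factor of vessels, was at 74.7, 64.03 and 69.99 CPM in iCM and 178, 175 and 141 CPM in nCM (-1.24 ± 0.17, adjusted p = 0.000169). Gpihbp1, which holds lipoprotein lipase on capillaries, was at 110.0, 91.7 and 94.5 CPM in iCM and 260.1, 216 and 149 CPM in nCM (-1.08 ± 0.26, adjusted p = 0.00788). Pecam1, at the levels given above, did not pass (-0.45 ± 0.36, adjusted p = 0.356; -0.47, adjusted p = 0.0215 in the fit of 6 libraries). The whole list summed to 5606, 4749 and 4995 CPM in iCM and 7994, 8245 and 6636 CPM in nCM, against 409.5, 277 and 526 CPM in CSC. Vessel genes in iCM were thus lower than in nCM by less than the distance of either group from CSC.

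**Figure D5:**
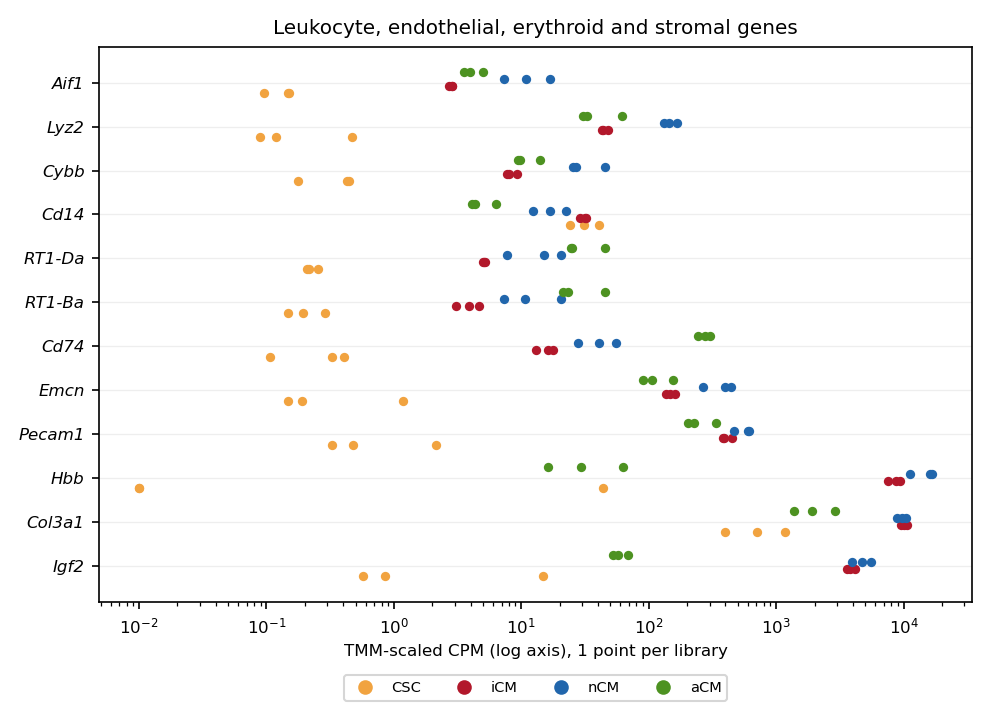
Level of 12 genes of leukocytes, vessels, red cells and stroma (rows) in each library of CSC (orange), iCM (red), nCM (blue) and aCM (green), in TMM-scaled CPM on a log axis, with values of 0 drawn at 0.01. Leukocyte and class II genes other than Cd14 lie left of nCM in iCM, while Hbb, Col3a1 and Igf2 in iCM lie near nCM and right of CSC and aCM.

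Of 17 genes of smooth muscle and pericytes, 4 were higher and 3 lower, shares near the 18.3% and 13.1% of all genes. Lmod1, the smooth muscle leiomodin, was at 39.8, 88.2 and 95.3 CPM in iCM and 5.39, 3.23 and 3.55 CPM in nCM (4.19 ± 0.32, adjusted p = 1.23e-06; 3.30, adjusted p = 2.44e-05 with iCM replicate 1 alone). Pdgfrb, the growth factor receptor of pericytes and fibroblasts, was at 398, 723 and 629 CPM in iCM and 165, 223 and 269 CPM in nCM (1.41 ± 0.23, adjusted p = 0.000581). Rgs5, a pericyte marker, was lower at 83.6, 70.8 and 76.7 against 149, 180.1 and 182 CPM (-1.14 ± 0.23, adjusted p = 0.00251), and so was Myh11, smooth muscle myosin, at 69.9, 66.4 and 83.1 against 107, 101 and 126 CPM (-0.61 ± 0.14, adjusted p = 0.00696). Defining smooth muscle genes therefore did not move together.

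Fibroblast and matrix genes had a median of 0.22, with 10 of 41 higher and 5 lower, against 18.3% and 13.1% of all genes. The higher ones numbered 9, 6 and 6 without iCM replicate 1, 2 and 3 and 7, 8 and 10 without nCM replicate 1, 2 and 3, and the lower ones 4, 2 and 3 without iCM replicate 1, 2 and 3 and 5, 3 and 3 without nCM replicate 1, 2 and 3, with 9 lower in the fit of 6 libraries. Col3a1, a chain of the common fibril collagens, did not pass, at 10576, 9477 and 10026 CPM in iCM and 8923, 10382 and 9699 CPM in nCM (0.05 ± 0.35, adjusted p = 0.924). Col8a1, a short-chain collagen of vessels and valves, was at 197, 323 and 287 CPM in iCM, 18.5, 23.7 and 29.5 CPM in nCM and 394, 346 and 462 CPM in CSC (3.49 ± 0.24, adjusted p = 5.03e-07). Col12a1, a fibril-associated collagen, was at 673, 2870.5 and 2685 CPM in iCM and 217, 281 and 440.5 CPM in nCM (2.73 ± 0.43, adjusted p = 0.000489; 1.12, adjusted p = 0.0468 with iCM replicate 1 alone), again with iCM replicate 1 the lowest. Mfap5, a microfibril protein, was lower at 19.2, 15.9 and 18.1 against 32.05, 40.3 and 34.2 CPM (-1.003 ± 0.18, adjusted p = 0.00123). Among matrix proteases and their inhibitors, 6 of 26 were higher and 2 lower, shares not far from the 18.3% and 13.1% of all genes; 6 were lower in the fit of 6 libraries and 4 with DESeq2. Timp2, an inhibitor, was at 456, 534 and 491 CPM in iCM and 116, 126 and 141 CPM in nCM (1.95 ± 0.15, adjusted p = 1.58e-06). Mmp12, the elastase of macrophages, was lower at 1.79, 1.24 and 1.26 against 6.79, 6.01 and 9.79 CPM (-2.39 ± 0.36, adjusted p = 0.000389), beside the lower macrophage list described above; the part of one in the other was not tested.

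In the signalling pathways examined, members of a pathway went both ways, against 18.3% higher and 13.1% lower among all genes. In the insulin-like growth factor system 6 of 20 were higher and 1 lower (4, 3 and 3 without iCM replicate 1, 2 and 3 and 4, 2 and 6 without nCM replicate 1, 2 and 3 higher, and 2 lower without nCM replicate 3). Igf2, the fetal growth factor expressed from the paternal copy, overlapped between the groups, with 4131, 3565 and 3809 CPM in iCM against 5505, 4695 and 3925 CPM in nCM (-0.30 ± 0.74, adjusted p = 0.789), while aCM were at 57.2, 51.98 and 69.2 CPM and CSC at 0.574, 14.7 and 0.858 CPM. Igfbp6, a binding protein that prefers that factor, was at 341, 257 and 246 CPM in iCM, 14.3, 14.6 and 19.8 CPM in nCM and 128, 167 and 125 CPM in CSC (4.11 ± 0.31, adjusted p = 1.22e-06). In the TGF-beta and BMP pathway 9 of 35 were higher and 3 lower (14 and 5 in the fit of 6 libraries). Fst, follistatin, which traps activins, was at 63.7, 53.2 and 54.1 CPM in iCM and 3.60, 3.44 and 3.95 CPM in nCM (3.96 ± 0.34, adjusted p = 3.51e-06). Tgfbr3, the co-receptor betaglycan, was at 142, 167 and 147 CPM in iCM and 48.8, 48.6 and 58.9 CPM in nCM (1.54 ± 0.11, adjusted p = 6.21e-07). The ligand Bmp4 was lower at 20.1, 15.5 and 18.3 against 41.6, 36.9 and 44.7 CPM (-1.19 ± 0.19, adjusted p = 0.000537). A trap was thus higher and a ligand lower in the same libraries.

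Wnt signalling genes were higher in 3 of 30 and lower in 4 (lower in 2 without any 1 of the iCM replicates or without nCM replicate 3). The share higher was below the 18.3% of all genes, and the share lower was near their 13.1%. The 3 higher ones are 2 receptors and a ligand, and the 4 lower ones are 2 ligands, an agonist and Dkk2, a secreted antagonist. Fzd7, a frizzled receptor, was at 23.97, 27.5 and 27.8 CPM in iCM, 8.22, 8.71 and 12.1 CPM in nCM and 1.89, 1.62 and 1.57 CPM in CSC (1.45 ± 0.22, adjusted p = 0.000424). Dkk2 was at 5.998, 6.62 and 6.06 CPM in iCM and 15.5, 16.7 and 15.2 CPM in nCM (-1.34 ± 0.24, adjusted p = 0.00118). Of 17 epicardial and mesothelial genes, 2 were higher and 3 lower (5 and 3 in the fit of 6 libraries), with a median of 0.30. Among all genes the shares were 18.3% and 13.1%. Wt1, a transcription factor of the epicardium, was at 36.6, 29.98 and 32.4 CPM in iCM, 52.7, 61.1 and 51.9 CPM in nCM and 0.550, 0.683 and 0.562 CPM in CSC (-0.74 ± 0.12, adjusted p = 0.000566). The iCM libraries of Wt1 thus lay below all nCM and above all CSC libraries, while Krt8, on the same list, was higher in iCM than in nCM and higher still in CSC, as given above.

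Sterol synthesis genes were higher in 10 of 18 and lower in 1 (6 higher without iCM replicate 3 or nCM replicate 2). Msmo1, a demethylating enzyme of the cholesterol pathway, was at 64.7, 66.3 and 76.5 CPM in iCM, 25.4, 19.4 and 15.1 CPM in nCM and 463, 461 and 443 CPM in CSC (1.79 ± 0.18, adjusted p = 1.52e-05). All iCM libraries of Msmo1 lay between the nCM and CSC libraries. Genes of wall stress and the natriuretic peptides were higher in 6 of 12 and lower in 1 (0 lower without iCM replicate 2 or 3 or nCM replicate 3). Nppa, the atrial natriuretic peptide, was at 119.7, 95.02 and 103 CPM in iCM, 61.3, 32.3 and 45.2 CPM in nCM and 1097, 442 and 809.7 CPM in aCM (1.19 ± 0.31, adjusted p = 0.0104; 0.99, adjusted p = 0.051 without nCM replicate 2). Postn, periostin of activated fibroblasts and valves, did not pass, at 2518, 2102 and 2337 CPM in iCM and 3688, 4585 and 4978 CPM in nCM (-0.93 ± 0.39, adjusted p = 0.0851; -0.94, adjusted p = 0.00167 in the fit of 6 libraries), and was at 26.1, 21.6 and 25.9 CPM in aCM. All iCM libraries of Postn lay below all nCM libraries.

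Receptors for catecholamines, acetylcholine and adenosine, with their regulators, were higher in 8 of 20 and lower in 4 (2 lower without iCM replicate 2 or 3). Rgs2, which shortens signals through G proteins, was at 492, 382 and 377 CPM in iCM and 89.7, 94.01 and 70.7 CPM in nCM (2.30 ± 0.37, adjusted p = 0.000571), and Rgs4, of the same family, was lower at 51.3, 40.3 and 41.7 against 94.3, 93.2 and 80.1 CPM (-1.005 ± 0.21, adjusted p = 0.00377). In the hypoxia response 8 of 20 were higher and 1 lower (6, 4 and 5 without iCM replicate 1, 2 and 3 and 7, 5 and 6 without nCM replicate 1, 2 and 3 higher, and 0 lower without any 1 of the iCM replicates or without nCM replicate 1 or 2). Ndrg1, a hypoxia-induced gene of differentiating cells, was at 746, 630.5 and 537 CPM in iCM and 116, 109 and 98.1 CPM in nCM (2.56 ± 0.20, adjusted p = 1.43e-06). Hif1a itself did not pass (-0.10 ± 0.13, adjusted p = 0.573).

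Cell cycle genes are read against the 13.1% of all genes that were lower in iCM. Of 24 mitosis genes, 3 were lower and 0 higher in iCM (1, 1 and 1 without iCM replicate 1, 2 and 3 and 1, 1 and 5 without nCM replicate 1, 2 and 3 lower, and 13 in the fit of 6 libraries). Of 26 DNA replication genes, 8 were lower and 1 higher (6, 3 and 4 without iCM replicate 1, 2 and 3 and 4, 3 and 6 without nCM replicate 1, 2 and 3 lower, and 13 in the fit of 6 libraries; 0 higher without any 1 of the iCM replicates or without nCM replicate 2 or 3). Prim1, a primase subunit, was at 38.1, 37.2 and 41.7 CPM in iCM, 69.8, 63.4 and 74.5 CPM in nCM and 185, 221 and 212 CPM in CSC (-0.83 ± 0.10, adjusted p = 7.6e-05). Ccnb2, a mitotic cyclin, was at 19.7, 20.3 and 19.2 CPM in iCM and 28.2, 29.3 and 25.9 CPM in nCM (-0.49 ± 0.12, adjusted p = 0.00934). Cdkn1b, the inhibitor p27 that holds cells out of the cycle, was higher at 84.5, 76.3 and 85.3 against 47.4, 52.6 and 36.8 CPM (0.85 ± 0.15, adjusted p = 0.00115). Top2a, a topoisomerase of dividing cells, did not pass, at 272, 257 and 253 CPM in iCM and 319, 355 and 249.6 CPM in nCM (-0.24 ± 0.19, adjusted p = 0.34), and stood at 25.8, 18.98 and 28.2 CPM in aCM. Its iCM and nCM libraries overlapped, and all of them lay above every aCM library.

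Stress genes differed by family. Of 24 heat shock genes, 8 were higher and 4 lower (lower in 2 without nCM replicate 2). The higher ones include small heat shock proteins that guard the Z-disc, such as Hspb6, at 31.7, 38.8 and 33.4 CPM in iCM and 16.96, 15.3 and 12.98 CPM in nCM (1.20 ± 0.12, adjusted p = 1.94e-05), and Hspb8, at 53.6, 74.3 and 92.2 against 38.2, 30.96 and 30.7 CPM (1.14 ± 0.17, adjusted p = 0.000345). The lower ones include the co-chaperone Dnaja1, at 292, 268 and 276 CPM in iCM and 386, 428 and 338 CPM in nCM (-0.46 ± 0.11, adjusted p = 0.00717). Immediate early genes, which tissue digestion is known to induce, were lower in 3 of 30 and higher in 0, against 13.1% lower among all genes. Of them 12 were lower in the fit of 6 libraries (in the fit of 12, 1, 0 and 0 without iCM replicate 1, 2 and 3 and 2, 0 and 1 without nCM replicate 1, 2 and 3; 2 higher without nCM replicate 2). Fos was at 2067, 1866 and 1924 CPM in iCM and 2002, 2447 and 1987 CPM in nCM (-0.14 ± 0.45, adjusted p = 0.842), against 1.36, 7.15 and 1.30 CPM in CSC. The ranges of iCM and nCM overlapped for Fos, and every library of both lay far above CSC.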

How the data were processed

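RNA of rat cells was extracted with TRIzol (RNA integrity number of at least 8), depleted of ribosomal RNA from 1 microgram and made into libraries with random primers, per the labels' protocols. The authors deposited estimated counts per Ensembl gene, with columns headed raw, and a log2 table of the same libraries, normalized with 1 factor each and centred on each gene's median, as the values show; DESeq is named in the submitters' processing notes. For aligner, counting program, strand setting and genome build, nothing is stated in the labels or headers. The deposited log2 values served only to read the authors' library factors.

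Counts were rounded to whole numbers. One row without a gene name held 0 counts and was left out. Of 26276 genes, 17242 passed edgeR's filterByExpr at a minimum count of 10. The 12 libraries of 4 groups were fitted with edgeR 4.0.16 (R 4.3.3, limma 3.58.1; TMM scaling, quasi-likelihood test, Benjamini-Hochberg adjustment over all genes tested, threshold 0.05). The standard error is the absolute log2 difference divided by the square root of F. DESeq2 1.42.0 was an alternative, and leave-one-out fits, other scalings, filters and a replicate block were others. Tested on simulated data for this contrast (17101 genes), 78 of 100 genes changed 2-fold and 99 of 100 changed 4-fold were recovered, with 12 false calls. At these library totals, 3 counts are 0.0583 to 0.0794 CPM.

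The groups come from the labels. The comparison and its 54 gene lists (1256 memberships, 1193 found in the table) were chosen with earlier results of these data known; results are printed for those lists the text describes. Named genes are the 14 largest changes each way with separate groups and at least 10 CPM, up to 4 called genes each way and the 3 highest genes of each list, the 10 largest differences in CPM each way and the 10 widest spreads within iCM; a selection of these is printed. Cacna1s, Cfd, Chrng, Ciita, Lep, Mybpc1, Myf5, Myod1, Pax7 and Pparg fall outside this rule and were chosen after their values were seen. Promoters were matched by symbol in RefSeq (GRCr8).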

Additional observations from a re-analysis of the deposited data

How the results depend on the processing

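Scaling (relative log expression, total counts or the authors' library factors), the low-count filter, DESeq2 and the fit of the 6 libraries left the numbers of genes higher, lower and changed at least 2-fold within 1.5 times those reported. With iCM replicate 1 alone, 918 genes were higher, 141 lower and 761 changed at least 2-fold; this fit holds fewer samples. Leaving out 1 library at a time gave 2263 to 3004 genes higher, 1231 to 2075 lower and 1565 to 2030 changed at least 2-fold, with the lowest counts of lower genes, 1231 and 1261, without iCM replicate 2 and 3. With iCM replicate 1 alone the log2 difference turned for Myod1 (-0.46), Gal (-0.67), Tmem8c (-0.13), Mybpc1 (-0.26), Chrng (-0.14) and Tnn (-0.42), and with total count scaling for Col3a1 (-0.0128); the cause was not tested. Of the genes named in the text, 44 kept their direction but did not pass with iCM replicate 1 alone.

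Same-numbered iCM and nCM libraries did not deviate together (correlations -0.00307, -0.0824 and -0.0876 for replicates 1, 2 and 3), so the number was not taken to pair them. With the replicate number as a block, 2832 genes were higher and 1887 lower in the fit of 12 libraries, and 3097 and 2556 in the fit of 6, with 1807 and 1873 changed at least 2-fold. Counting error matters most for genes of a few counts per library, such as Ces1d and Myog in nCM.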
